A study of Mus musculus with 2 samples.

Results

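The expression of 9 genes of the urea cycle and of glutamine metabolism, by which the liver disposes of ammonia, was followed in regenerating mouse liver. They were taken by gene name from a list of 9, and every one was found among the 34745 genes that the authors listed. Of these, 6 carry the urea cycle (*Nags*, *Cps1*, *Otc*, *Ass1*, *Asl* and *Arg1*), and the remaining 3 make or break down glutamine and glutamate (*Glul*, *Gls2* and *Glud1*). All 9 passed the filter on low values, which asked for at least 10 counts over both libraries and kept 13561 genes.

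Liver of miR-182-5p knockout (KO) and wild-type (WT) mice, all of them male and 8 to 10 weeks old, was used for poly(A) RNA-seq. Both genotypes had undergone 2/3 partial hepatectomy (PH), and the study's text places the samples on day 3 after it. The KO mice were heterozygous, so the comparison is between a reduced and a normal gene dose of the microRNA. Each genotype was represented by 1 library, and the sources used here do not state how many mice went into it. There is therefore no replicate check of any difference below, and no test of the genotypes enters the main results. Intervals are 95% intervals, exact (Clopper-Pearson) for single genes, sums and shares and by a normal approximation for pairs of genes, and cover counting error only. *Mir182*, the targeted gene, is not among the listed genes, so the genotype labels could not be checked on it.

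The urea cycle turns ammonia and bicarbonate into urea and runs mainly in hepatocytes around the portal vein. Its first steps take place in the mitochondrion and its later ones in the cytosol. Ammonia that escapes periportal cells is caught as glutamine by a narrow ring of hepatocytes around the central vein, which express *Glul*. Glutaminase and glutamate dehydrogenase release ammonia from glutamine and glutamate inside mitochondria and so feed the cycle.

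The libraries held 13247497 (KO) and 13163348 (WT) counts, but they differed in how those counts were spread. Messages encoded in mitochondrial DNA (13 genes) made up 51.7% of KO counts against 31.0% of WT counts, which left fewer counts for all other genes in KO. Differences are given here after TMM scaling, which sets the bulk of the genes level and placed the median gene at a log2 fold change of 0.00. Scaled by total counts instead, the median of all genes tested was -0.60, and the 9 genes moved down with it. Counts and FPKM (counts divided by gene length and by the library's total) are both without this scaling, so a lower count or FPKM in KO has to be read against that shift. Albumin (*Alb*) had 339876 counts in KO and 536544 in WT, with a log2 fold change of -0.07, and of 15 hepatocyte markers tested only 1 was past 2-fold. It was *Apob*, with 1517 counts in KO and 17808 in WT. The next lowest were *Fga* (-0.54) and *Ahsg* (-0.53), and the highest was *Hp* (0.27). Of the 15 markers, 9 lay above 0 and 6 below.

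None of the 9 genes differed 2-fold between the libraries. Across all genes tested, 9.46% were at least 2-fold higher in KO and 9.94% at least 2-fold lower, and among the 2090 genes with a summed count of 1000 or more, a group that holds all 9, the shares were 3.83% and 4.11%. At 1.5-fold none of the 9 was higher (18.7% of all genes tested and 10.4% of the abundant ones) and 2, *Nags* and *Cps1*, were lower (19.4% and 12.9%). *Nags*, *Cps1* and *Ass1* were lower in KO by 1.73-fold, 1.54-fold and 1.42-fold, and the other 6 genes lay between log2 fold changes of -0.11 and 0.25. The median of the 9 was 0.07, beside 0.00 for all genes tested. The counting interval lay above 0 for 5 genes and below 0 for 4, where 25.8% and 26.2% of all genes tested did so. At these depths most abundant genes had an interval that left out 0 (35.8% above and 42.7% below), so such an interval was common.

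The scaling set the direction of 5 of the 9. By total counts all 9 had a negative log2 fold change, as did 81.7% of all genes tested and 90.0% of the abundant ones. *Nags*, *Cps1* and *Ass1* were then at least 2-fold lower in KO, a size that 26.6% of all genes tested and 21.3% of the abundant ones reached. *Otc*, *Asl*, *Arg1*, *Glul* and *Gls2* had positive values after TMM scaling and negative ones by total counts. The order of the 9 genes by fold change is the same under either scaling, since a scaling adds 1 constant to them all.

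**Figure D1:**
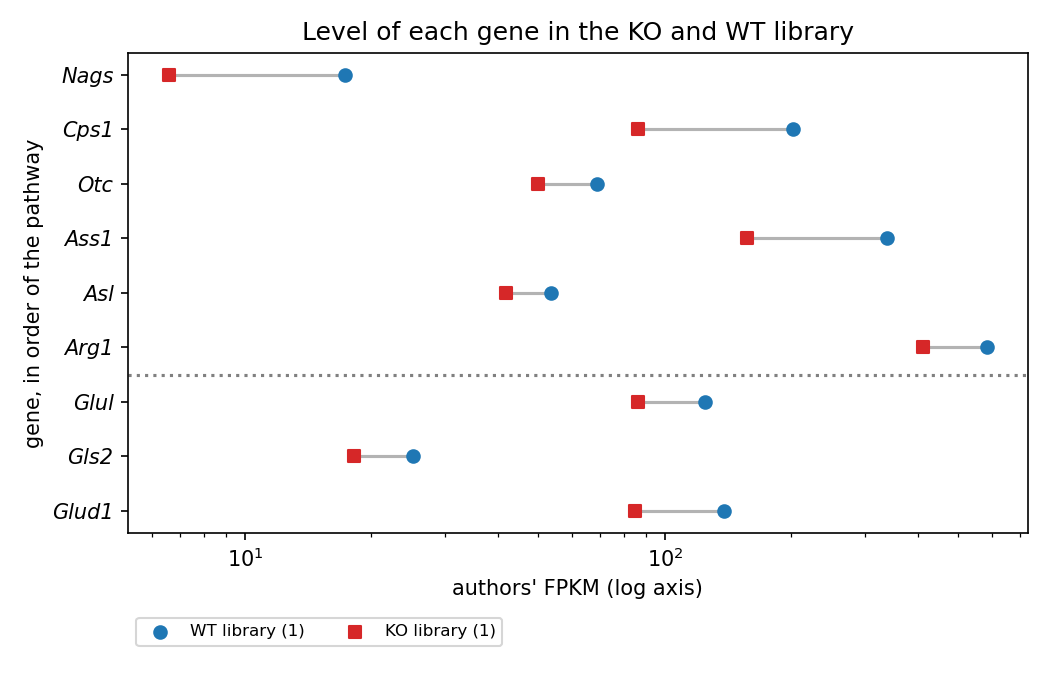
FPKM as the authors computed it (log axis) for the 9 genes in the KO library (red squares) and the WT library (blue circles), 1 library each, with urea cycle genes above the dotted line. All 9 points lie lower in KO, as do most genes on this unscaled measure, and the gaps of *Nags*, *Cps1* and *Ass1* are the widest.

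*Nags* encodes N-acetylglutamate synthase, which makes the cofactor without which the first enzyme of the cycle does not work. It lies on chromosome 11 (102145513 to 102149477, plus strand, in the coordinates of GRCm38). *Nags* had 384 counts (6.59 FPKM) in KO and 1004 counts (17.3 FPKM) in WT. Its log2 fold change of -0.79 (-0.97 to -0.62) was the lowest of the 9, and it was also the least abundant, with the widest interval. By total counts the value was -1.39. An antisense gene, *Gm11586*, overlaps its exons and had 0 counts in both libraries.

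*Cps1* encodes carbamoyl-phosphate synthetase 1, the mitochondrial enzyme that joins ammonia and bicarbonate and sets the pace of the cycle (chromosome 1, 67123026 to 67231259, plus strand). It had 6334 counts (86.1 FPKM) in KO and 14753 counts (202 FPKM) in WT. The log2 fold change was -0.63 (-0.67 to -0.58), and -1.23 by total counts. Relative to the median of the hepatocyte markers, which was 0.08, its value was -0.71, an alternative added after the data had been seen.

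*Cps1* was also the only one of the 9 with a match to the seed of miR-182-5p in its 3′ UTR, which is why that sequence is shown. A microRNA pairs with its targets mainly through bases 2 to 8, given in capitals in the mature microRNA, and the match it leaves in a target is given in capitals in the strand of the mRNA.
mmu-miR-182-5p: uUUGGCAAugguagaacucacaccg
Cps1 3′ UTR, with the match: aatggatggtgTTGCCAAActttattttg
The microRNA is annotated at chr6:30165962-30165986 on the minus strand (GRCm38.p6, from RefSeq). The match, TTGCCAAA, starts at base 97 of the 913-base 3′ UTR, the longest annotated for the gene. This 8-base word was present in the longest 3′ UTR of 4.98% of 12503 tested genes, and a match of 7 or 8 bases in 19.5%. The match is a stretch of letters and was not tested as a binding site. The level of *Cps1* was the lower one in KO, the library with the reduced dose of the microRNA.

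*Otc* encodes ornithine transcarbamylase, which combines carbamoyl phosphate with ornithine to form citrulline, the last mitochondrial step (chromosome X, 10252305 to 10321024, plus strand). It had 2891 counts (49.7 FPKM) in KO and 3983 counts (69.0 FPKM) in WT. The log2 fold change was 0.13 (0.06 to 0.20), and -0.47 by total counts. *Otc* thus lay on the other side of the median gene from *Nags* and *Cps1*, the 2 genes that act just before it in the same compartment.

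*Ass1* encodes argininosuccinate synthase, which condenses citrulline with aspartate in the cytosol (chromosome 2, 31470207 to 31520672, plus strand). It had 6144 counts (157 FPKM) in KO and 13197 counts (339 FPKM) in WT. The log2 fold change was -0.51 (-0.55 to -0.47), and -1.11 by total counts. Its reads are shared with a copy: 55.0% of the 51-base words in its transcript occur in *Gm5424*, a processed pseudogene on chromosome 10 (62071015 to 62072609), which was itself listed at 3889 counts in KO and 9725 in WT. How the authors' counting split such reads is not given in the sources used here. Summed, *Ass1* and *Gm5424* had 10033 counts in KO and 22922 in WT, and the log2 fold change was -0.60 (-0.63 to -0.57), so the sum was lower in KO as well.

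*Asl* encodes argininosuccinate lyase, which cleaves argininosuccinate into arginine and fumarate (chromosome 5, 130011258 to 130029247, minus strand). It had 3691 counts (41.9 FPKM) in KO and 4687 counts (53.6 FPKM) in WT. Its log2 fold change of 0.25 (0.19 to 0.31) was the highest of the 9, and -0.35 by total counts.

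*Arg1* encodes arginase 1, which releases urea and returns ornithine to the cycle (chromosome 10, 24915208 to 24927470 in the authors' table, minus strand). It was the most abundant of the 9 per length, with 8032 counts (411 FPKM) in KO and 11342 counts (584 FPKM) in WT. Its log2 fold change of 0.09 (0.05 to 0.14) was close to that of the median gene, and -0.51 by total counts. The second arginase gene, *Arg2*, had 3 counts in KO and 0 in WT.

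*Glul* encodes glutamine synthetase, the pericentral enzyme that fixes ammonia into glutamine (chromosome 1, 153899944 to 153909723, plus strand). It had 4226 counts (86.1 FPKM) in KO and 6086 counts (125 FPKM) in WT. The log2 fold change was 0.07 (0.01 to 0.12) and turned to -0.02 when libraries were scaled by total counts without the mitochondrial genes. *Gls2* encodes the liver form of glutaminase (chromosome 10, 128194457 to 128210004, plus strand). It had 1847 counts (18.1 FPKM) in KO and 2540 counts (25.1 FPKM) in WT. Its log2 fold change was 0.13 (0.05 to 0.22), and -0.47 by total counts. *Spryd4*, which overlaps its exons on the other strand, had 241 and 287 counts, and the strand setting of the counting is not given.

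*Glud1* encodes glutamate dehydrogenase, which frees ammonia from glutamate (chromosome 14, 34310727 to 34345144 in the authors' table, plus strand). It had 5125 counts (84.8 FPKM) in KO and 8314 counts (139 FPKM) in WT. The log2 fold change was -0.11 (-0.16 to -0.06), and -0.71 by total counts. The 3 glutamine and glutamate genes lay within a narrower band than the urea cycle genes, from -0.11 to 0.13 against -0.79 to 0.25.

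**Figure D2:**
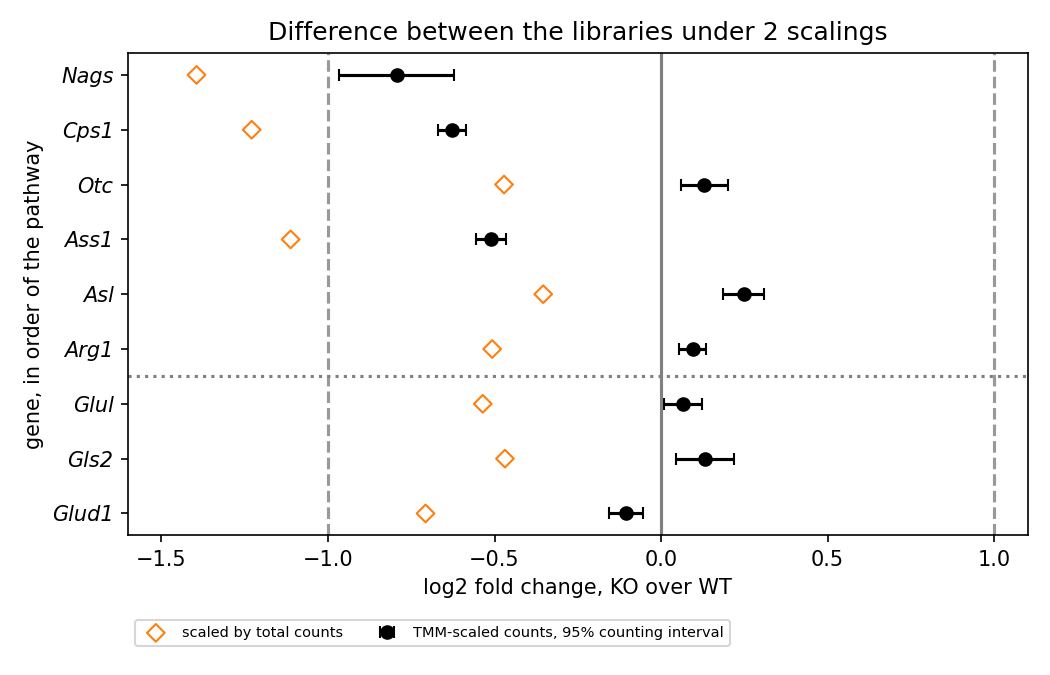
Log2 fold change of KO over WT for the 9 genes, from TMM-scaled counts (black points with 95% counting intervals) and from total counts (open orange diamonds), with dashed lines at 2-fold. All black points lie inside the dashed lines, and the diamonds of *Nags*, *Cps1* and *Ass1* lie beyond the left one, while *Otc*, *Asl*, *Arg1*, *Glul* and *Gls2* change sides with the scaling.

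Of the promoters in the RefSeq table (250 bases before to 50 bases after the start, GRCm38.p6), 5 belong to the 9 genes, namely those of *Nags*, *Ass1*, *Otc*, *Glul* and *Glud1*. Those of 3 genes are shown because *Nags* and *Ass1* had the lowest fold changes of the 5 and *Otc* is their neighbour in the cycle with a value on the other side. Capitals mark the GC box GGGCGG (or CCGCCC, its other strand) and the E-box CACGTG.
Nags promoter, chr11:102145263-102145562, plus strand: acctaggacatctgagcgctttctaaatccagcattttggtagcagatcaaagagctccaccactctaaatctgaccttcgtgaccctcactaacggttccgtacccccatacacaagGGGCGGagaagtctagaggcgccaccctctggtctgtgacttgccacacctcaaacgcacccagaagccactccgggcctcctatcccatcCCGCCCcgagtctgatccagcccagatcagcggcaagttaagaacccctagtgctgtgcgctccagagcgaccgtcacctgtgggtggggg
Ass1 promoter, chr2:31470020-31470319, plus strand: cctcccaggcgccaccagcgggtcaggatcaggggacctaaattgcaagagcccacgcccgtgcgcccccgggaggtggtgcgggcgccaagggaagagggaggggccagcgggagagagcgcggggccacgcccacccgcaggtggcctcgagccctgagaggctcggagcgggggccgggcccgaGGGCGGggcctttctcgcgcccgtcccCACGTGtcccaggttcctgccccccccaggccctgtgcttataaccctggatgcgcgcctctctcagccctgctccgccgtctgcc
Otc promoter, chrX:10252055-10252354, plus strand: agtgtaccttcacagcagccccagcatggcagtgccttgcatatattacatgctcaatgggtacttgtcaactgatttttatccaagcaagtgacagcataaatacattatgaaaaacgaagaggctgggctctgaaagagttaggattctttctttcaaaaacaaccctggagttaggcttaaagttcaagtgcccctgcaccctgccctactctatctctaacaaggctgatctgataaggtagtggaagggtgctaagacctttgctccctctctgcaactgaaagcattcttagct
*Nags* holds GC boxes that begin 132 and 41 bases before its start, and *Ass1* holds 1 GC box 63 bases before it and 1 E-box 36 bases before it. *Otc* holds neither. The GC box, sought on both strands, was present in 35.7% of all 32851 promoters of this length and in 4 of the 5 here (*Nags*, *Ass1*, *Glul* and *Glud1*). The E-box was present in 7.15%, and the CCAAT box, found in *Glul* alone of the 5, in 37.4%.
None of the 5 windows holds a TATA box (TATAAA, 13.6% of promoters), a full cAMP response element (TGACGTCA, 1.79%), the C/EBP word TTGCNNAA (10.8%) or the HNF4 word CAAAGTCCA (0.475%). GC content was 57.7% for *Nags*, 74.0% for *Ass1* and 44.3% for *Otc*, with a median of 52.7% over all promoters. *Glul* (64.3%) and *Glud1* (81.0%) were also above that median.

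Per length, the order of the genes in WT was *Arg1*, *Ass1*, *Cps1*, *Glud1*, *Glul*, *Otc*, *Asl*, *Gls2* and *Nags*. *Arg1* was the 77th gene by FPKM among all listed genes in WT and the 71st in KO, while *Cps1* went from rank 189 to 268 and *Nags* from 1515 to 2250. In KO, *Cps1*, *Glul* and *Glud1* stood within 2 FPKM of each other, whereas in WT they were well apart. The ratio of *Cps1* to *Glul* FPKM was 1.62 in WT and 1.00 in KO, and that of *Cps1* to *Glud1* was 1.46 in WT and 1.01 in KO.

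Ratios between genes of the same library do not depend on the scaling, so they were followed along the cycle. The difference between the log2 fold changes of 2 genes is the change in their count ratio. *Nags* and *Cps1*, cofactor enzyme and its client, differed by -0.17, with an interval (-0.34 to 0.01) that holds 0. Between *Cps1* and *Otc* the count ratio was 2.19 in KO and 3.70 in WT, a difference of -0.76 (-0.84 to -0.68). From *Otc* to *Ass1* the sign turned, with 0.64 (0.56 to 0.72).

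Between *Ass1* and *Asl* the ratio was 1.66 in KO and 2.82 in WT, a difference of -0.76 (-0.83 to -0.68). *Asl* and *Arg1* differed by 0.15 (0.08 to 0.23).

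For glutamine, the count ratio of the synthetase gene *Glul* to the glutaminase gene *Gls2* changed little. *Glul* minus *Gls2* was -0.07 (-0.17 to 0.04), an interval that holds 0. *Glul* minus *Glud1* was 0.17 (0.10 to 0.25), and *Gls2* minus *Glud1* was 0.24 (0.14 to 0.34).

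Over all 36 pairs, 29 had an interval that left out 0, and the median size of the difference was 0.38. The share among pairs of other genes was not computed. Of single abundant genes, 35.8% had an interval above 0 and 42.7% one below it. Those are shares of genes and not of pairs, so whether 29 of 36 is particular to these genes cannot be said. The widest pair was *Nags* and *Asl* at -1.04 (-1.22 to -0.86). *Nags*, *Cps1* and *Ass1*, a trio chosen after their values were seen, made up 33.3% of the counts of the 9 genes in KO (32.8% to 33.7%) and 43.9% in WT (43.6% to 44.3%). These intervals again hold no spread between mice.

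**Figure D3:**
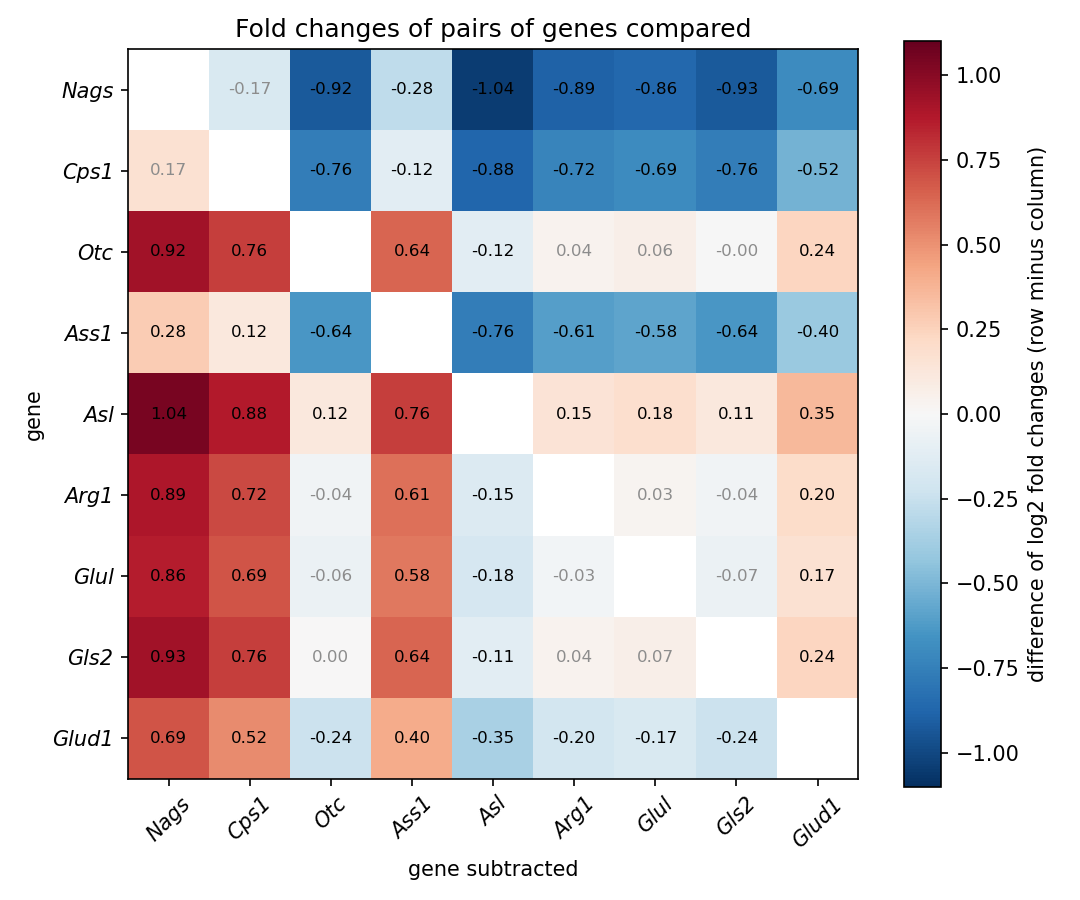
Difference between the log2 fold changes of each pair of the 9 genes (row minus column, colour scale in log2 units), with pairs whose 95% counting interval holds 0 in grey print. The rows of *Nags*, *Cps1* and *Ass1* are negative against each of the other 6 genes. That is bound to be so, since they were picked as the lowest fold changes of the 9. Among those 6 the differences reach 0.35 in size, and 9 of 15 pairs have an interval that leaves out 0. The smallest difference between one of the picked genes and one of the 6 is 0.40.

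Taken as sums, the 9 genes gave 38674 counts in KO and 65906 in WT, or 0.292% and 0.501% of all counts. Leaving out the counts of the mitochondrial genome, the shares were 0.604% (0.598% to 0.610%) and 0.725% (0.720% to 0.731%). The 6 urea cycle genes had a summed log2 fold change of -0.24 (-0.26 to -0.22), and the 3 glutamine and glutamate genes -0.00 (-0.04 to 0.03). By place of work, the 5 mitochondrial enzymes summed to -0.29 (-0.32 to -0.26) and the 4 cytosolic ones to -0.08 (-0.11 to -0.06), and *Ass1* was the only cytosolic gene below 0. Without *Cps1* the mitochondrial sum was -0.04 (-0.07 to -0.00), a value computed after the data had been seen, and *Otc* and *Gls2* lay above 0. By total counts all of these sums were negative as well.

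The partners of the cycle, 16 transporters, anhydrases and sirtuins, were measured next, and 11 of them passed the filter. Counts of 2-fold genes in this and the following lists stand beside 9.46% higher and 9.94% lower among all genes tested. None was 2-fold higher or lower, and their median was 0.07. They ranged from *Aqp8*, with 359 counts in KO and 1045 in WT (-0.95, interval -1.13 to -0.77), to *Sirt3*, with 356 and 386 (0.47). *Slc25a15*, which carries ornithine into mitochondria, had 1307 counts in KO and 2336 in WT (log2 fold change -0.25), and *Aqp9*, a channel for urea and glycerol, had 2263 and 3209 (0.09). *Slc25a13*, which exports the aspartate that *Ass1* uses, had 519 and 1002 (-0.36), and *Car5a*, the anhydrase that supplies bicarbonate to *Cps1*, had 154 and 212 (0.13, interval -0.18 to 0.44). *Slc25a13* and *Car5a* were named after their values were seen, for their place next to *Ass1* and *Cps1*. *Aqp8* and *Sirt3* were also named after their values were seen, as the ends of the list.

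The 20 aminotransferases and deaminases, which pass amino groups to glutamate and aspartate, had a median of -0.14, and 1 of them was 2-fold higher. This was *Aspg*, an asparaginase, with 6322 counts in KO and 4312 in WT and a log2 fold change of 1.14 (1.09 to 1.20), though 0.54 by total counts. *Tat*, tyrosine aminotransferase, had 9212 and 16534 counts (-0.25), and *Oat*, the pericentral ornithine aminotransferase, had 4395 and 7499 (-0.18).

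A list of 23 glutamine transporters and users, which also holds carriers of ammonia and of other amino acids, held larger differences than the 9 enzymes. Of the 21 that passed the filter, 2 were at least 2-fold higher in KO and 4 lower, with a median of -0.06. *Slc38a3*, the sodium-coupled glutamine carrier of hepatocytes (SNAT3), rose in KO to 9537 counts from 2666 in WT, by 2.43 on the log2 scale (2.37 to 2.49) and by 1.83 with total counts. *Asns*, asparagine synthetase, which uses glutamine as its nitrogen donor, rose to 192 counts from 33, by 3.11 on the log2 scale (2.59 to 3.71).

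Among those lower in KO was *Slc1a4*, a carrier of neutral amino acids, with 35 counts in KO and 215 in WT (-2.01, interval -2.59 to -1.51). *Slc38a1* (9 and 36 counts, -1.37) and *Gfpt2* (3 and 12 counts, -1.30, interval -3.87 to 0.48) were low in both.

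Of 21 genes of ornithine, proline and polyamines, 18 passed the filter, with a median of -0.34, 2 higher and 2 lower. *Azin1*, which blocks the inhibitors of ornithine decarboxylase, had 274 counts in KO and 32 in WT (3.67, interval 3.16 to 4.27). *Oaz2*, one of those inhibitors, had 12 and 287 (-3.94, interval -4.96 to -3.16). *Odc1*, ornithine decarboxylase itself, had 144 and 361 counts (-0.73, interval -1.02 to -0.45).

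The other higher gene of that list, *Azin2*, had 7 and 4 counts, and its interval (-0.58 to 3.62) holds 0. *Agmat* (900 and 1727 counts, -0.35) and *Gamt*, which methylates guanidinoacetate to creatine (2359 and 3712 counts, -0.06), were the most abundant of the list per length and lay within 2-fold.

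Among regulators of the urea cycle genes, 20 were measured. They included the glucagon receptor, glucocorticoid receptor and liver-enriched factors and had a median of 0.27, with 2 of the 20 at least 2-fold higher, close to the 9.46% of all genes tested, and none lower. *Nr1h4*, the bile acid receptor FXR, had 1998 counts in KO and 911 in WT (1.72, interval 1.61 to 1.84, and 1.12 by total counts). *Pde4b*, which breaks down cyclic AMP, had 92 and 25 (2.44, interval 1.82 to 3.17). *Gcgr*, the receptor through which glucagon turns on urea cycle genes, had 4767 and 4372 counts (0.72), and *Cebpb* had 1498 and 2505 (-0.15). *Hnf4a*, a factor that defines hepatocytes, had 3168 and 4601 counts (0.05, interval -0.01 to 0.12). By total counts the medians of all 5 of these lists were negative, as was that of all genes, and the count of 2-fold lower genes came to 1 partner of the cycle, 5 aminotransferases and deaminases, 7 transporters and users of glutamine, 6 genes of ornithine, proline and polyamines and 0 regulators, where 26.6% of all genes tested were lower and 4.6% higher (21.3% and 1.29% of the abundant ones).

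**Figure D4:**
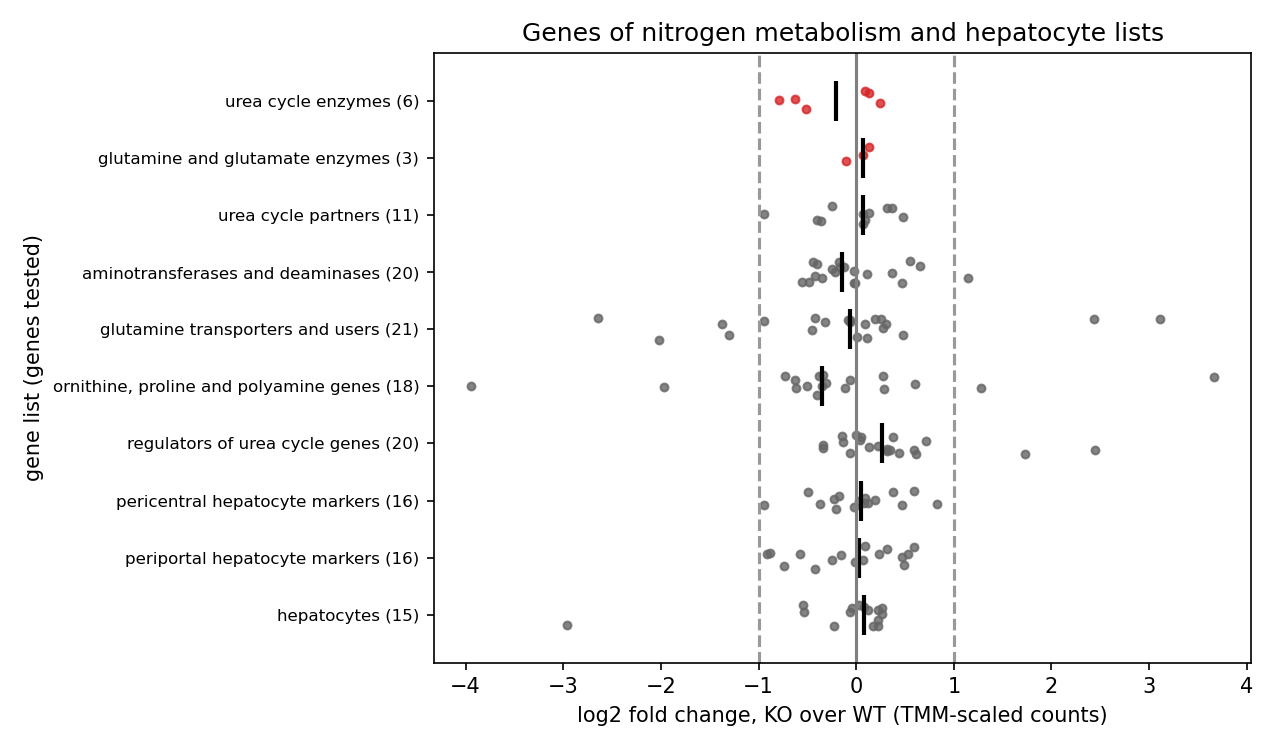
Log2 fold change (KO over WT, TMM-scaled counts) of every tested gene in 10 gene lists, with the 9 urea cycle and glutamine genes in red, other genes in grey, a black bar at each list's median and dashed lines at 2-fold. The red points stay between -0.79 and 0.25, while lists of glutamine transporters and users and of polyamine genes reach beyond -2 and 2 in both directions.

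The annotation that the authors deposited gives a second set of pathway names. Of 18 genes it assigns to KEGG arginine biosynthesis, 15 passed the filter, with a median of -0.02, and 1 was past 2-fold, on the lower side. Of the 9 genes, *Ass1* alone is not assigned to it. Of 34 genes in alanine, aspartate and glutamate metabolism, 27 passed, with a median of -0.09, 1 higher (*Asns*) and 2 lower. Of 16 in nitrogen metabolism 12 passed, with a median of -0.12, 1 higher and 1 lower.

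Because the urea cycle is periportal and *Glul* pericentral, markers of both zones were read beside them. The 16 periportal markers had a median of 0.03 and the 16 pericentral markers 0.05, with none past 2-fold in either list. By total counts 5 periportal and 2 pericentral markers were at least 2-fold lower, beside 26.6% of all genes tested and 21.3% of the abundant ones. *Pck1*, a periportal gluconeogenic enzyme, had 15078 counts in KO and 16220 in WT (0.49), and *Cyp2e1*, a pericentral cytochrome, had 12292 and 17020 (0.12). Within the periportal list, *Aldh1b1* (-0.91), *Etnppl* (-0.88), *Hsd17b13* (-0.74) and *Fbp1* (-0.57) had the lowest values, beside -0.79 for *Nags* and -0.63 for *Cps1*, and *Pigr* (0.59) and *Igfals* (0.53) had the highest. The pericentral list was as wide, from *Rhbg* (-0.94) to *Cyp2c37* (0.83). These 8 genes were chosen after their values were seen, as the ends of the lists.

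In RNA of whole liver, fewer cells of a type and less RNA per cell cannot be told apart. The summed share of 15 hepatocyte markers was 7.01% of counts in KO and 10.7% in WT, while their median log2 fold change after TMM scaling was 0.08. This share and those below are of all counts, of which mitochondrial messages took 51.7% in KO and 31.0% in WT. A lower share in KO has to be read against that. Markers of non-parenchymal cells, which do not carry the urea cycle, had medians of -0.59 (12 stellate cell markers), -0.40 (12 of Kupffer cells and macrophages) and -0.13 (12 endothelial markers). Their sums were small: stellate markers took 0.0118% of counts in KO and 0.0262% in WT, and Kupffer and macrophage markers 0.0159% and 0.0318%. Of the stellate markers 2 were at least 2-fold lower, of the Kupffer and macrophage markers 2, and of the endothelial markers 1. By total counts these numbers were 8, 6 and 4 of 12 each, beside 26.6% of all genes tested. The 7 tested cholangiocyte markers had a median of 0.40, and 3 were higher (*Krt19*, *Krt7* and *Muc1*), each under 50 counts. *Tm4sf4*, with 400 counts in KO and 1049 in WT, had a value of -0.80 (-0.97 to -0.63), and *Sox9*, with 69 and 129, one of -0.31 (-0.75 to 0.12). Tested markers of neutrophils (7), lymphocytes (4) and erythroid cells (5) had medians of 0.58, 0.25 and -0.59.

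Of 8 genes that mark kidney or intestine, where parts of the urea cycle also run, *Slc12a1*, *Umod*, *Slc14a2*, *Aqp2* and *Sis* had 0 counts in both libraries and *Vil1* had 0 in KO and 4 in WT. The other 2 were detected: *Lgals4* had 641 counts in KO and 915 in WT (0.08, interval -0.07 to 0.23), and *Fabp2* had 249 and 733 (-0.96, interval -1.18 to -0.76). The part of these cell markers, and of the mitochondrial share, in the values of the 9 genes was not tested.

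Transcript length and base content were set beside the fold change. Abundant genes were split into 5 bins of equal size by transcript length, and the median log2 fold change went from -0.17 in the shortest bin to 0.11 in the longest. *Nags*, *Ass1* and *Arg1* fall in bin 2, whose median was -0.12. *Cps1* falls in the longest bin and lay below its median. By GC content the medians of the bins, from the poorest to the richest in GC, were 0.00, -0.11, -0.08, -0.09 and 0.07, with no steady order. *Nags* and *Gls2*, with values of -0.79 and 0.13, share the bin richest in GC.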

How the data were processed

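Poly(A) RNA of mouse liver was sequenced on Illumina HiSeq instruments. For each gene the authors deposited a raw read count and an FPKM value. Between libraries the deposited FPKM follow the total counts, which include the mitochondrial genes. The submitters' processing notes name HISAT2 2.0.4, StringTie, edgeR and the build hg38. The identifiers are mouse Ensembl genes, and 80.8% of the 34267 found in GENCODE M21 (GRCm38) have its coordinates, so positions are given in GRCm38. The table's annotation columns were used for gene names and KEGG pathways.

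Counts were scaled by TMM in R 4.3.3 with edgeR 4.0.16 (factors 0.812 for KO and 1.23 for WT), over genes with at least 10 counts in both libraries together, with a prior count of 0.5. With 1 library per genotype no test enters the main results, and a call is a 2-fold change. An exact binomial test and edgeR's exact test with an assumed coefficient of variation served only in alternative call rules. Intervals of the fold change come from the exact interval of the KO share of a gene's counts, and those of pairs from a normal approximation on the log counts of both genes. Shared words were 51 bases long. Seed matches were sought in the longest 3′ UTR of GENCODE M21 and motifs in RefSeq promoters.

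Alternatives were total counts, total counts without the 13 mitochondrial genes, DESeq2 1.42.0 size factors, the upper quartile, FPKM as deposited (pseudocount 0.1), a prior count of 5, minimums of 1 or 50 counts, and other call rules. Scaling to the hepatocyte markers and adding the counts of *Gm5424* to *Ass1* were chosen after seeing the data. Python 3.11.15, scipy 1.17.1, pandas 2.3.3, numpy 2.4.6 and matplotlib 3.10.9 served for tables and figures. The steps were tested on simulated data.

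The members and gene lists were chosen with earlier results of these data known. Named genes are the 9 members and, from each other list, genes past 2-fold with at least 30 counts in the higher library and the 2 most abundant per length. Others are named with a remark or as markers. Some genes that this rule names are not reported here.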

Additional observations from a re-analysis of the deposited data

How the results depend on the processing

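Scaling was the choice that moved these results. The median log2 fold change of the 9 genes was 0.07 after TMM scaling, -0.54 with total counts, -0.53 with the authors' FPKM, -0.021 with total counts without the mitochondrial genes and -0.014 relative to the hepatocyte markers, the last of these chosen after seeing the data. The count of genes at least 2-fold lower in KO was 0 after TMM scaling, 3 with total counts, 3 with FPKM and 2 (*Nags* and *Cps1*) at a threshold of 1.5-fold, which 19.4% of all genes tested reached on the lower side. The upper quartile, DESeq2 size factors, a prior count of 5 and minimums of 1 and 50 counts left that count at 0. The rules built on the exact binomial test and on edgeR's exact test also asked for a 2-fold change. None of the 9 reached that size after TMM scaling, so the count under these rules could only be 0, whatever the tests gave. No alternative gave a gene at least 2-fold higher. Outside total counts and FPKM, *Nags* ranged from -0.88 to -0.78, *Cps1* from -0.71 to -0.61 and *Ass1* from -0.60 to -0.50, and among the 9 only *Glul* changed sign (-0.02 to 0.08). All 36 pair differences stayed within their intervals with a prior count of 5. This was bound to happen, since such a prior hardly moves genes with this many counts. Scaling cannot change the pair differences. No paired analysis was possible because both groups hold a single library, and for the same reason no replicate could be left out. Depth limits *Nags* most, at 384 counts in KO, and the spread between mice could not be estimated for any of the 9.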
